A study of Mus musculus with 4 samples.

Results

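The genes of central carbon metabolism described here are 43 mouse genes chosen by function and by symbol, out of 52636 gene lines in the count table. They comprise 18 genes of glycolysis and glucose uptake, 4 of lactate production and transport, 6 of the pentose phosphate pathway, 2 that govern the entry of pyruvate into mitochondria and 13 of the tricarboxylic acid (TCA) cycle. The cells are a mouse Hoxb8 line, named for the homeobox gene that is commonly used to hold myeloid progenitors in culture. One group carried an empty vector (EV, n = 2 libraries) and the other expressed DNMT3AR882H (R882H, n = 2 libraries), a form of the DNA methyltransferase DNMT3A with a substitution that recurs in acute myeloid leukaemia. No other treatment, time or genotype is given, and whether both groups come from the same founder culture, whether a group is a single clone, and whether its replicates are separate cultures is not stated, so the p-values measure the spread between these samples, which may be technical. The study concerns heme synthesis and copper-dependent cell death, and its only contrast asks which transcripts differ between the R882H and the EV cells.

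Glycolysis splits glucose into pyruvate in the cytosol, with net gain of ATP and NADH. Lactate dehydrogenase regenerates the NAD+ it needs, and monocarboxylate transporters carry the lactate out. The pentose phosphate pathway branches off at glucose 6-phosphate and yields NADPH and ribose 5-phosphate, the sugar of nucleotides. In mitochondria the TCA cycle oxidises acetyl-CoA and supplies succinyl-CoA, a substrate of heme synthesis, while its intermediates are exchanged with the cytosol. Cells can make several isozymes of the same step from separate genes, and these differ in location and regulation.

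Reads came from the 3′ ends of poly(A) RNA (QuantSeq), so a transcript gives tags irrespective of its length, and levels are given as CPM, a library's counts scaled to a common TMM-adjusted total. The libraries held 5470330 to 5921985 counts, and 3 counts correspond to 0.507 to 0.548 CPM. Markers of other lineages differed between the groups, where 38.8% of all tested genes were called. Of 8 B-lineage markers, 7 were tested and all 7 rose, with a summed level of 546 to 566 CPM in EV and 1659 to 1672 CPM in R882H, and Pax5 was at 0 counts in both EV libraries. Of 8 mast cell and basophil markers, 4 of 5 tested rose (99.7 to 102 CPM summed in EV and 415 to 432 CPM in R882H) and Gata2 fell, with Fcer1a, Ms4a2 and Tpsb2 too low to be tested. Of 8 megakaryocyte markers, 2 of 4 tested fell, Pf4 and Ppbp, and the summed level was 874 to 1060 CPM in EV and 23.5 to 28.7 CPM in R882H, while Itga2b rose. The 6 stromal markers had no counts, 5 of 7 T-lineage markers had none and Lck, the 1 tested, fell, and macrophage markers summed to 52.7 to 56.2 CPM in EV and 67.3 to 74.6 CPM in R882H with Adgre1 lower, Cd68 and Cx3cr1 higher and C1qa, C1qb and Mrc1 at 0. Of 13 myeloid progenitor genes 4 rose: Kit, Flt3, Ctsg and Mpo (166 and 198 counts in EV, 7250 and 7237 in R882H). The 3 that fell were Cebpa, Csf2rb and Hoxb8 (25 and 44 counts in EV, 15 and 4 in R882H). Whether the Hoxb8 counts include any introduced copy of the gene is not given. The pan-leukocyte gene Ptprc and the progenitor gene Cd34 were expressed in all libraries and were not called. The Y-linked gene Ddx3y had counts of 0 and 2 in EV and 65 and 41 in R882H, beside 1438 to 1880 counts of Xist in every library. Differences between founder cultures and effects of DNMT3AR882H cannot be told apart in this design. The part of these differences in the results below was not tested, and in bulk RNA fewer cells of a type and less RNA per cell cannot be told apart.

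For orientation at the DNA level, the promoters of 4 genes are printed: the genes with the largest falls of their pathways, Slc16a1 and Hk2, and 2 that rose, Pfkl and Suclg2. Each is the stretch before a RefSeq transcription start (GRCm38.p6) that no annotated exon covers, read 5′ to 3′ on the gene's strand. The Pfkl stretch has 197 bases and the others 250. It lies inside the GENCODE span of Pfkl (77986947 to 78010083), so it is not upstream of the start annotated there. Capitals mark ACGTG on either strand (read as CACGT on the opposite strand), the core bound by hypoxia-inducible factors, which overlaps CACGTG, the E-box bound by MYC.
Slc16a1, chr3:104638414-104638663, plus strand: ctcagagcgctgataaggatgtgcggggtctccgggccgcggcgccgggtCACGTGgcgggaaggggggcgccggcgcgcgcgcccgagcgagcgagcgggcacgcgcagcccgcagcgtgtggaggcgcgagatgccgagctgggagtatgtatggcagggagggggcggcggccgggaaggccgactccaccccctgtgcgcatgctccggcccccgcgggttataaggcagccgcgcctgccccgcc
Hk2, chr6:82774455-82774704, minus strand: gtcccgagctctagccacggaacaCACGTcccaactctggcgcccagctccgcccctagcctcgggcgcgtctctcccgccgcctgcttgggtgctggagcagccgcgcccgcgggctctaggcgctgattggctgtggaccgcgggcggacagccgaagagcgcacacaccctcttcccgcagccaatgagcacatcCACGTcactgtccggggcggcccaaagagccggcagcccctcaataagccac
Pfkl, chr10:78009808-78010004, minus strand: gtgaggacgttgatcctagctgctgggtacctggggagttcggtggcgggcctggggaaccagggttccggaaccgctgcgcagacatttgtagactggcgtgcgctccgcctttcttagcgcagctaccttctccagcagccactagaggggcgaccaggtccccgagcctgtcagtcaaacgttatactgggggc
Suclg2, chr6:95718847-95719096, minus strand: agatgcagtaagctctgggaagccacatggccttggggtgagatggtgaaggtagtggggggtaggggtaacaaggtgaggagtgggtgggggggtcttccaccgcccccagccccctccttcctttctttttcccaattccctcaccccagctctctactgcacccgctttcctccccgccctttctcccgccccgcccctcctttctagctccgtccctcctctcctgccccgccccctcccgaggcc
The Slc16a1 stretch holds a full CACGTG and the Hk2 stretch 2 copies of CACGT, while these letters are not in the Pfkl and Suclg2 windows. CpG dinucleotides, the sites that DNMT3A methylates, number 37, 25 and 8 in the 250 bases of Slc16a1, Hk2 and Suclg2. They number 13 in the 197 bases of Pfkl, so this count is not on the same footing. These 4 promoters do not stand for their sets. Over 250 bases, the median of the highest CpG count per gene was 16 in members that fell and 11.5 in those that rose. It was 18 in members not called and 17 in the genes tested in the counts. Over the 250 bases before the start, 16 of the 41 members with a RefSeq promoter (39.0%) hold ACGTG, against 25.9% of the genes tested in the counts and 18.5% of all genes in the promoter table. Of the members that fell, 6 of 15 with a promoter hold it, of those that rose, 1 of 6, and of those not called, 8 of 18. A match is a run of letters, not a bound site, and methylation was not measured here.

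In R882H cells, most of the called glycolysis genes were lower, and isozymes of the same step differed in direction at aldolase and malate dehydrogenase. Enough counts for a test were present in 41 members, of which 6 were called higher, 17 lower and 18 neither (edgeR quasi-likelihood test, adjusted p under 0.05). Among all 11444 genes tested, 38.8% were called, 19.3% higher and 19.4% lower in R882H. The median log2 fold change was −0.13 over the members and 0.01 over all genes. Summed over all members, the level was 10700 and 11770 CPM in the EV libraries and 9821 and 9621 CPM in the R882H libraries. Of the 23 called members, 9 kept their call under each alternative that could fit them: Hk2, Pfkl, Aldoc, Slc16a1, G6pdx, Ogdh, Suclg2, Mdh1 and Mdh2. The share of all tested genes called under those alternatives was 38.6% with the size factors of DESeq2, 38.3% with plain library sizes, 24.4% without the low-count filter, 39.1% with a fixed minimum count, 20.9% in DESeq2, 38.0% without robust fitting, 38.7% with a replicate block and 39.8% without overlapping genes. It was 35.7% and 29.8% without EV replicate 1 or 2, and 25.1% and 26.8% without R882H replicate 1 or 2. The plot of fold changes shows every tested member by pathway.

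**Figure D1:**
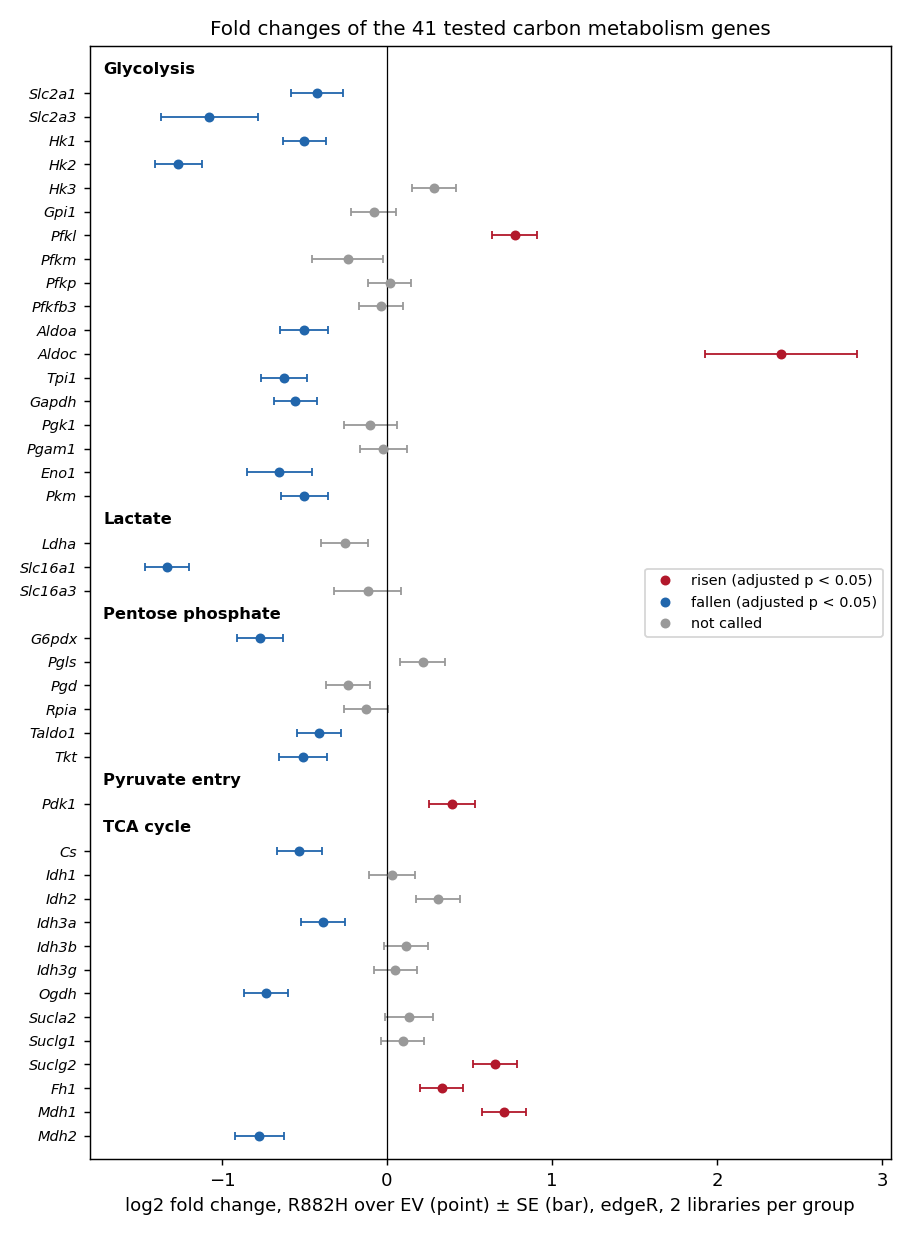
Log2 fold change of R882H over EV (point) with its standard error (bar) from edgeR for the 41 tested members, ordered by pathway; red points rose, blue points fell and grey points were not called. Glycolytic genes lie mostly left of 0, with Pfkl (0.77) and Aldoc (2.38) as the 2 that rose.

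At glucose phosphorylation, Hk1 and Hk2 fell and Hk3 was not called. Glycolysis had 18 genes, of which 9 fell, 2 rose and 7 were not called, with a median log2 fold change of −0.33. The called share was 61.1%, beside 38.8% of all tested genes. Hk2 encodes hexokinase 2, the inducible, mitochondria-associated enzyme that traps glucose as glucose 6-phosphate (ENSMUSG00000000628, mm10 chromosome 6, 82725025 to 82774454). It was at 73.4 and 79.8 CPM in EV and at 31.79 and 31.95 CPM in R882H, a group mean of 76.6 ± 4.55 CPM against 31.9 ± 0.111 CPM (SD, n = 2). The R882H libraries nearly coincided and lay far below both EV libraries (log2 fold change −1.26 ± 0.14 SE, adjusted p = 7.69e-09). Hk1, the constitutive hexokinase, was at 119 and 123 CPM in EV and at 87.8 and 82.5 CPM in R882H (−0.50 ± 0.13, adjusted p = 0.00242). Hk3, the form typical of myeloid cells, went the other way, with 129 and 158 CPM in EV and 175 and 174 CPM in R882H. The groups did not overlap, but the difference missed the threshold (0.28 ± 0.13, adjusted p = 0.0927) and was called when EV replicate 2 was left out (0.43, adjusted p = 0.0132).

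The make-up of the hexokinase transcripts differed accordingly. Hk2 gave 22.9% (exact 95% interval 20.9 to 24.9) and 22.1% (20.4 to 24.0) of the family's counts in the EV libraries, and 10.8% (9.39 to 12.3) and 11.1% (9.58 to 12.7) in the R882H libraries. Hk3 gave 40.2% and 43.8% in EV and 59.4% and 60.4% in R882H. The intervals, here and below, cover counting error only. The ratio of Hk3 to Hk2 counts was 1.76 and 1.98 in EV and 5.49 and 5.46 in R882H. Exons of Hk3 overlap those of Unc5a on the opposite strand (299 to 441 counts), and the strand setting of the counting is not given in the sources used here. Exons of Hk1 likewise overlap Hk1os (3 to 24 counts).

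Both member glucose transporters fell, while of the other transporters on the lists Slc2a8 rose (0.85 ± 0.27, adjusted p = 0.0127) and Slc2a6 was not called (−0.36 ± 0.23, adjusted p = 0.219); both were named after their values were seen. Slc2a1 (GLUT1) was at 46.4 and 58.1 CPM in EV and at 35.5 and 42.5 CPM in R882H (−0.42 ± 0.16, adjusted p = 0.0294). Slc2a3 (GLUT3), a high-affinity transporter, was sparse, at 7.89 and 13.8 CPM in EV and 5.52 and 4.74 CPM in R882H (−1.08 ± 0.29, adjusted p = 0.00376). Neither pair of groups overlapped, yet both calls rested on single libraries. Without EV replicate 2 the adjusted p was 0.264 for Slc2a1 and 0.195 for Slc2a3 (−0.62), and in DESeq2 it was 0.161 and 0.0758. Without R882H replicate 1 it was 0.321 for Slc2a1.

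At phosphofructokinase, the committed step of glycolysis, the liver-type subunit was called and the other subunits were not. Pfkl (ENSMUSG00000020277, chromosome 10, 77986947 to 78010083) was at 118 and 145 CPM in EV and at 226 and 222 CPM in R882H, or 131 ± 19.1 against 224 ± 2.70 CPM (0.77 ± 0.13, adjusted p = 2.06e-05). The platelet-type subunit Pfkp was at 117 and 125 CPM in EV and 125 and 120 CPM in R882H, with overlapping groups (0.02 ± 0.13, adjusted p = 0.929). The muscle-type subunit Pfkm was low throughout, at 11.04 to 14.67 CPM (−0.24 ± 0.22, adjusted p = 0.404). The Pfkl share of the family's counts was 47.2% and 50.9% in EV and 62.5% in each R882H library. Pfkfb3, whose product makes the allosteric activator fructose 2,6-bisphosphate, was at 83.03 to 94.08 CPM in all libraries (−0.04 ± 0.13, adjusted p = 0.856). Exons of Pfkp and Pfkm overlap Pitrm1 (296 to 370 counts) and Senp1 (248 to 373 counts) on the opposite strand. Exons of Pfkl overlap no other expressed gene.

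**Figure D2:**
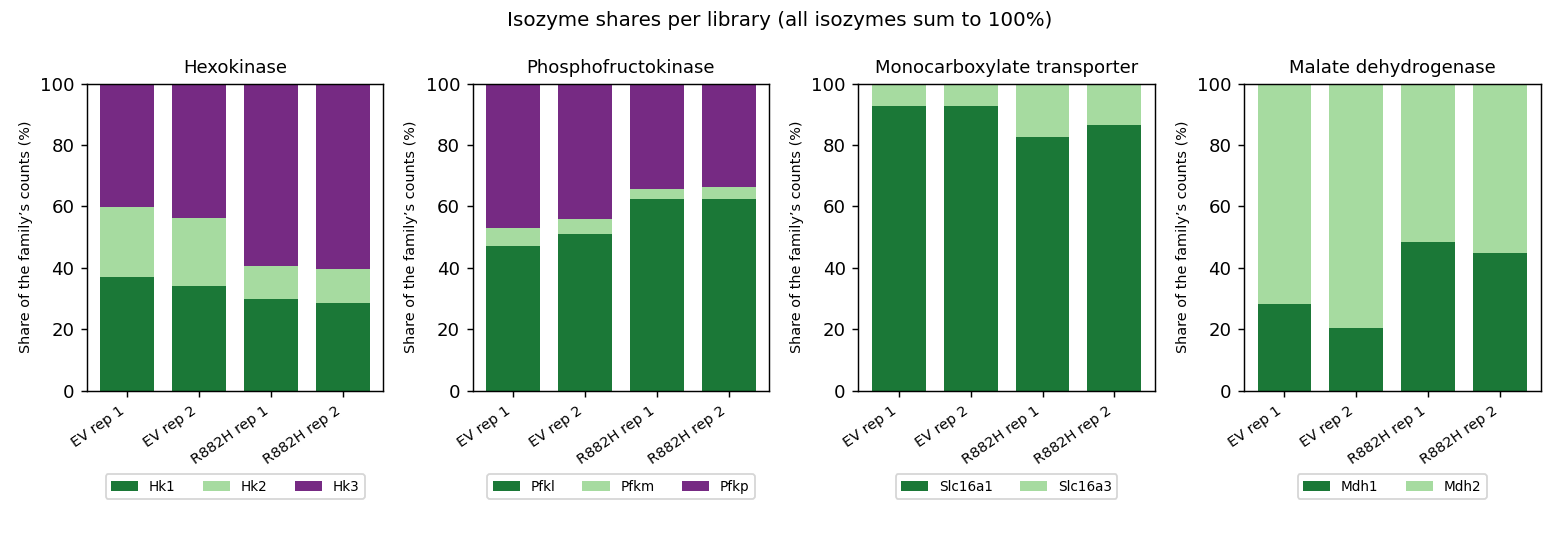
Stacked bars give the share of each isozyme in its family's counts (percent) in each of the 4 libraries, for hexokinase, phosphofructokinase, monocarboxylate transporter and malate dehydrogenase genes. Hk2 holds 22.1% to 22.9% in EV and 10.8% to 11.1% in R882H, Pfkl rises to 62.5%, and Mdh1 goes from 20.3% to 28.2% in EV to 44.7% to 48.6% in R882H.

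Among the lower steps, 5 enzymes fell, with log2 fold changes from −0.65 to −0.50, where 19.4% of all tested genes fell. Pgk1 and Pgam1 were not called and Aldoc rose, as given further below. Aldoa, the main aldolase, was at 976 and 1171 CPM in EV and at 828 and 687 CPM in R882H (−0.50 ± 0.15, adjusted p = 0.00596). Pkm, pyruvate kinase, whose M1 and M2 splice forms share their 3′ end and are counted together, was at 961 and 1092 CPM in EV and at 784 and 667 CPM in R882H (−0.50 ± 0.14, adjusted p = 0.00532). Tpi1, the isomerase of the triose phosphates, was at 292 and 316 CPM in EV and at 224 and 170 CPM in R882H (−0.63 ± 0.14, adjusted p = 0.000493). In these 3 genes each R882H library lay below both EV libraries, and R882H replicate 2 was the lowest of the 4. Gapdh, which reduces NAD+ at glyceraldehyde 3-phosphate, was at 182 and 184 CPM in EV and at 131 and 118 CPM in R882H (−0.55 ± 0.13, adjusted p = 0.000945). Eno1, enolase, was at 38.7 and 64.6 CPM in EV and at 37.8 and 27.9 CPM in R882H, so that R882H replicate 1 nearly reached EV replicate 1 (−0.65 ± 0.20, adjusted p = 0.0116).

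The calls of these 5 genes and of Hk1 ended without R882H replicate 2, while each fold change kept its sign. It was −0.36 for Aldoa (adjusted p = 0.235), −0.37 for Pkm (0.212), −0.43 for Tpi1 (0.110), −0.47 for Gapdh (0.0697), −0.43 for Eno1 (0.116) and −0.44 for Hk1 (0.0850). In that fit 3 of the 18 glycolysis genes fell in place of 9, where 12.8% of all genes fell. Without EV replicate 2 the fold change of Eno1 was −0.24 (adjusted p = 0.362). The 3′ ends of Gapdh resemble those of 135 other annotated genes, 126 of them pseudogenes, and 54 of these together held 207 counts beside 3486 for Gapdh. For Eno1 the retrogene Eno1b held 81 counts beside 962. How reads that map to several places were treated is not given in the sources used here, so the levels of Gapdh and Eno1 are not set against other genes. Exons of Tpi1 and Gapdh overlap Spsb2 and Iffo1 on the opposite strand (28 to 51 and 42 to 100 counts), and Iffo1 itself rose (0.82, adjusted p = 0.00424).

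The brain-type aldolase Aldoc (ENSMUSG00000017390, chromosome 11, 78322968 to 78327781) rose, against the direction of Aldoa. It was at 1.47 and 4.59 CPM in EV and at 21.6 and 10.4 CPM in R882H (2.38 ± 0.46, adjusted p = 0.00171), from 8 and 26 counts in EV and 129 and 59 in R882H. Within each group the libraries differed widely, and the log2 fold change ranged from 1.77 without R882H replicate 1 to 3.43 without EV replicate 2. Aldoc stayed a minor form, with 0.15% and 0.39% of aldolase counts in EV and 2.54% and 1.49% in R882H.

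Other steps of glycolysis were not called. Pgam1, phosphoglycerate mutase, had the highest level of the members, leaving Gapdh and Eno1 out of the ranking. It was at 1675 and 1733 CPM in EV and 1607 and 1747 CPM in R882H (−0.02 ± 0.14, adjusted p = 0.912). Gpi1, which converts glucose 6-phosphate to fructose 6-phosphate, was at 377 and 442 CPM in EV and 424 and 350 CPM in R882H (−0.08 ± 0.14, adjusted p = 0.682). Pgk1, the kinase that makes the pathway's earlier ATP, was at 31.2 to 37.6 CPM in all libraries (−0.10 ± 0.16, adjusted p = 0.660). In each of the 3 genes the groups overlapped. Over the 18 genes, the summed level was 5236 and 5842 CPM in EV and 4870 and 4573 CPM in R882H, or 5539 ± 428 against 4721 ± 210 CPM. In 10 of the 18 both R882H libraries were lower than both EV libraries and in 3 both were higher, where 33.9% and 35.2% of all tested genes showed these patterns.

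**Figure D3:**
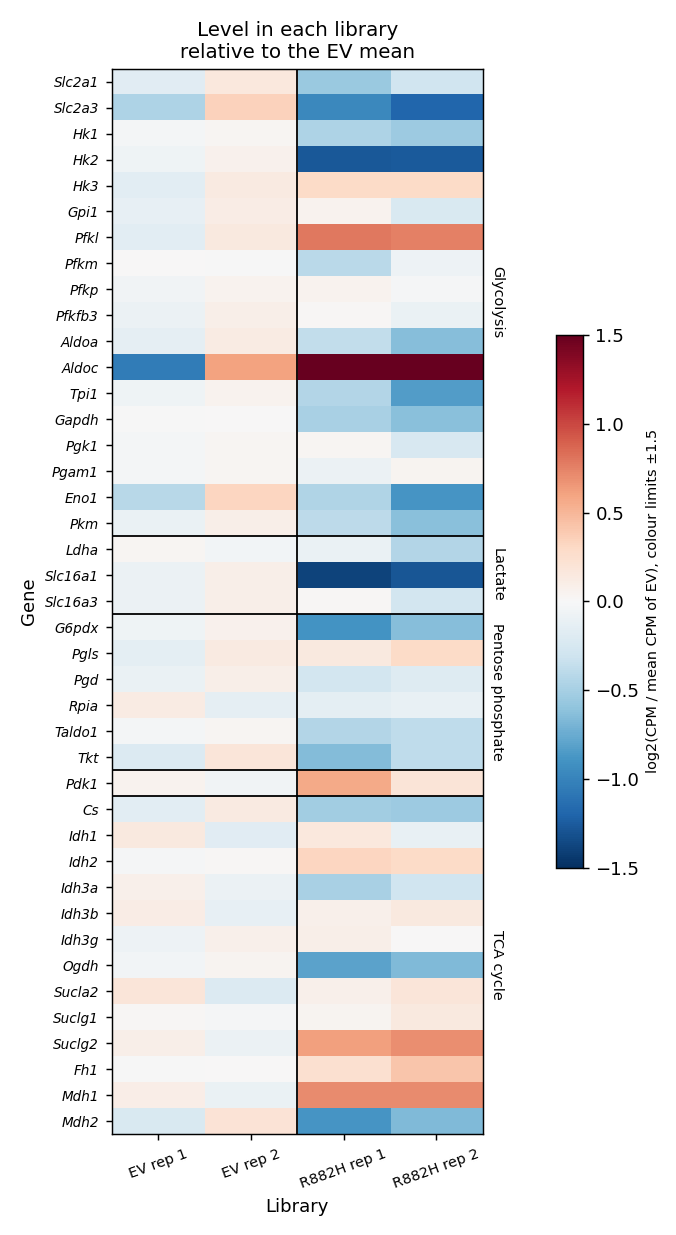
Colour gives log2 of a library's CPM over the mean CPM of EV for each tested member (rows, by pathway) in the 4 libraries (columns); colours end at ±1.5, which Aldoc exceeds in both R882H libraries. Within R882H, replicate 2 is bluer than replicate 1 at Aldoa, Tpi1, Gapdh, Eno1, Pkm and Ldha.

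Among the lactate genes, the transporter MCT1 fell. Slc16a1 (ENSMUSG00000032902, chromosome 3, 104638668 to 104658462) encodes MCT1, a proton-coupled carrier of lactate and pyruvate. It was at 201 and 226 CPM in EV and at 81.8 and 87.9 CPM in R882H, or 214 ± 17.8 against 84.9 ± 4.33 CPM (−1.33 ± 0.13, adjusted p = 5.84e-10). This was the largest fall among the members, and the fold change stayed between −1.42 and −1.25 under the alternatives. Slc16a3, encoding MCT4, the carrier of strongly glycolytic cells, was low at 15.8 and 17.8 CPM in EV and 17.1 and 13.9 CPM in R882H (−0.12 ± 0.20, adjusted p = 0.680). Its share of the counts of both carriers was 7.26% and 7.30% in EV and 17.3% and 13.6% in R882H, while its own groups overlapped. Ldha, the muscle-type lactate dehydrogenase that favours lactate formation, was at 714 and 679 CPM in EV and at 652 and 515 CPM in R882H. Both R882H libraries were lower, but the difference did not pass the test (−0.26 ± 0.14, adjusted p = 0.153). Ldhb, the heart-type subunit, had no counts in any library, which allows up to 3 counts or 0.507 to 0.548 CPM per library, so the lactate dehydrogenase tags counted came from Ldha. Of the 3 lactate genes tested, 1 fell and 0 rose in edgeR (33.3% called, beside 38.8% of all tested genes). At an unadjusted p under 0.05 edgeR and DESeq2 each gave 1 gene.

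In the pentose phosphate pathway, G6pdx of the oxidative branch fell, as did Tkt and Taldo1 of the non-oxidative branch. Of the pathway's 6 genes, 3 fell and 0 rose in edgeR. Of all tested genes, 19.4% fell and 38.8% were called in either direction. At an unadjusted p under 0.05 edgeR and DESeq2 each gave 3 genes of the pathway. Its summed level was 1942 and 2253 CPM in EV and 1628 and 1798 CPM in R882H. G6pdx, glucose 6-phosphate dehydrogenase, sets the rate of the oxidative branch and yields NADPH (ENSMUSG00000031400, chromosome X, 74409483 to 74429194). It was at 78.3 and 85.8 CPM in EV and at 44.0 and 52.5 CPM in R882H, or 82.0 ± 5.29 against 48.2 ± 6.00 CPM (−0.77 ± 0.14, adjusted p = 3.60e-05). The next enzymes of that branch were not called. Pgls, the lactonase, was at 281 and 339 CPM in EV and 344 and 377 CPM in R882H (0.22 ± 0.14, adjusted p = 0.209), and was called when EV replicate 2 was left out (adjusted p = 0.0359). Pgd, the NADPH-yielding decarboxylase, was at 386 and 439 CPM in EV and 341 and 360 CPM in R882H (−0.23 ± 0.13, adjusted p = 0.164), and leaving out EV replicate 1 brought it past the threshold (adjusted p = 0.0376).

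The non-oxidative branch returns pentoses to glycolysis through transketolase and transaldolase. Tkt, transketolase, was at 623 and 818 CPM in EV and at 461 and 553 CPM in R882H (−0.51 ± 0.15, adjusted p = 0.00603). Taldo1, transaldolase, was at 464 and 481 CPM in EV and at 348 and 362 CPM in R882H, with close libraries in each group (−0.41 ± 0.13, adjusted p = 0.0129). For both Tkt and Taldo1 each R882H library lay below both EV libraries, as in 33.9% of all tested genes. A call nearly fixes this pattern in advance. Rpia, the ribose 5-phosphate isomerase, was at 94.7 to 114 CPM in all libraries (−0.13 ± 0.13, adjusted p = 0.470). The Tkt call ended without EV replicate 2 (adjusted p = 0.0785, −0.30) and without R882H replicate 1 (0.214), and that of Taldo1 without R882H replicate 1 (0.195) and without R882H replicate 2 (0.121). Without R882H replicate 1, G6pdx alone fell, where 12.3% of all genes did, and without genes that overlap another, Taldo1 alone, where 19.6% did. Exons of G6pdx overlap Ikbkg on the opposite strand (74 to 143 counts), those of Pgls overlap Fam129c on the same strand (6 to 35 counts), which itself rose (1.98, adjusted p = 0.000358), and those of Tkt overlap Mir3076 (0 to 5 counts).

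Both genes of pyruvate entry act at the mitochondrial branch point. Pdk1, a kinase that switches off pyruvate dehydrogenase, was at 73.9 and 68.7 CPM in EV and at 106 and 81.4 CPM in R882H (0.40 ± 0.14, adjusted p = 0.0238). Most of that rise lay in R882H replicate 1: without it the fold change was 0.20 (adjusted p = 0.470), and without R882H replicate 2 it was 0.59. The call also ended without EV replicate 2 (adjusted p = 0.108) and in DESeq2 (0.141). Pcx, pyruvate carboxylase, which refills the cycle with oxaloacetate, had 2 counts in R882H replicate 1 and 0 in the other libraries, and was not tested.

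The TCA cycle genes moved in both directions, with 3 of 13 higher, 4 lower and 6 not called, and a median log2 fold change of 0.10. Of all tested genes 19.3% were higher and 19.4% lower. The 3 higher genes were Suclg2, the cytosolic Mdh1, and Fh1, which kept its call in 4 of 12 alternatives. The summed level was 2525 and 2687 CPM in EV and 2469 and 2553 CPM in R882H, so that the groups overlapped. The paired malate dehydrogenases went opposite ways. Mdh2, the mitochondrial enzyme of the cycle (ENSMUSG00000019179, chromosome 5, 135778480 to 135790398), was at 541 and 731 CPM in EV and at 344 and 401 CPM in R882H, or 636 ± 134 against 372 ± 40 CPM (−0.77 ± 0.15, adjusted p = 6.64e-05). Mdh1, the cytosolic enzyme of the malate-aspartate shuttle (ENSMUSG00000020321, chromosome 11, 21556787 to 21572367), was at 212 and 186 CPM in EV and at 325 and 324 CPM in R882H, or 199 ± 19.0 against 325 ± 0.986 CPM (0.71 ± 0.13, adjusted p = 5.79e-05). Mdh1 counts per Mdh2 count were 0.392 and 0.254 in EV and 0.946 and 0.809 in R882H. Exons of Mdh1 overlap Wdpcp on the opposite strand, which had 6 to 18 counts.

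Citrate synthase and 1 subunit of the oxoglutarate dehydrogenase complex were lower. Cs, citrate synthase, was at 270 and 332 CPM in EV and at 210 and 207 CPM in R882H (−0.53 ± 0.13, adjusted p = 0.00198). Ogdh, the E1 subunit of oxoglutarate dehydrogenase, which forms succinyl-CoA (ENSMUSG00000020456, chromosome 11, 6291633 to 6356642), was at 90.04 and 94.96 CPM in EV and at 52.9 and 58.4 CPM in R882H, or 92.5 ± 3.479 against 55.7 ± 3.95 CPM (−0.73 ± 0.13, adjusted p = 4.26e-05). The other subunits of that complex, Dlst (0.08 ± 0.13, adjusted p = 0.680) and Dld (0.01 ± 0.14, adjusted p = 0.965), were not called; they were named after their values were seen. Suclg2, the GTP-forming beta subunit of succinyl-CoA ligase (ENSMUSG00000061838, chromosome 6, 95473009 to 95718800), rose, with 82.0 and 72.7 CPM in EV and 119 and 125 CPM in R882H (0.66 ± 0.13, adjusted p = 0.000154). Its ATP-forming counterpart Sucla2 was at 66.2 and 50.7 CPM in EV and at 61.6 and 66.5 CPM in R882H, with overlapping groups (0.13 ± 0.14, adjusted p = 0.488). The shared alpha subunit Suclg1 was at 203 to 228 CPM (0.10 ± 0.13, adjusted p = 0.593). Suclg2 counts per Sucla2 count were 1.24 and 1.44 in EV and 1.93 and 1.88 in R882H. The Cs call missed the threshold without R882H replicate 2 (adjusted p = 0.0528).

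Of the 5 isocitrate dehydrogenase genes, 1 was called. Idh3a, the catalytic subunit of the NAD-dependent enzyme, was at 141 and 126 CPM in EV and at 95.4 and 108 CPM in R882H (−0.39 ± 0.13, adjusted p = 0.0197). Its partner subunits Idh3b (100.1 to 120 CPM; 0.11 ± 0.13, adjusted p = 0.525) and Idh3g (155 to 174 CPM; 0.05 ± 0.13, adjusted p = 0.794) had overlapping groups, and Idh3b overlaps Nop56 on the opposite strand (1405 to 1849 counts). Of the NADP-dependent enzymes, which are recurrently altered in acute myeloid leukaemia, the mitochondrial Idh2 was at 332 and 338 CPM in EV and at 420 and 410 CPM in R882H. Its groups lay apart but missed the threshold (0.31 ± 0.13, adjusted p = 0.0604). The cytosolic Idh1 was at 150 and 120 CPM in EV and 150 and 125 CPM in R882H (0.03 ± 0.14, adjusted p = 0.885). Fh1, fumarase, was at 165 and 167 CPM in EV and at 196 and 221 CPM in R882H (0.33 ± 0.13, adjusted p = 0.0438). The Fh1 call ended in 8 of 12 alternatives, with adjusted p from 0.0427 to 0.354 over all 12. The Idh3a call ended without EV replicate 1 (0.0734), R882H replicate 1 (0.306) or R882H replicate 2 (0.0685) and in DESeq2 (0.0653).

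**Figure D4:**
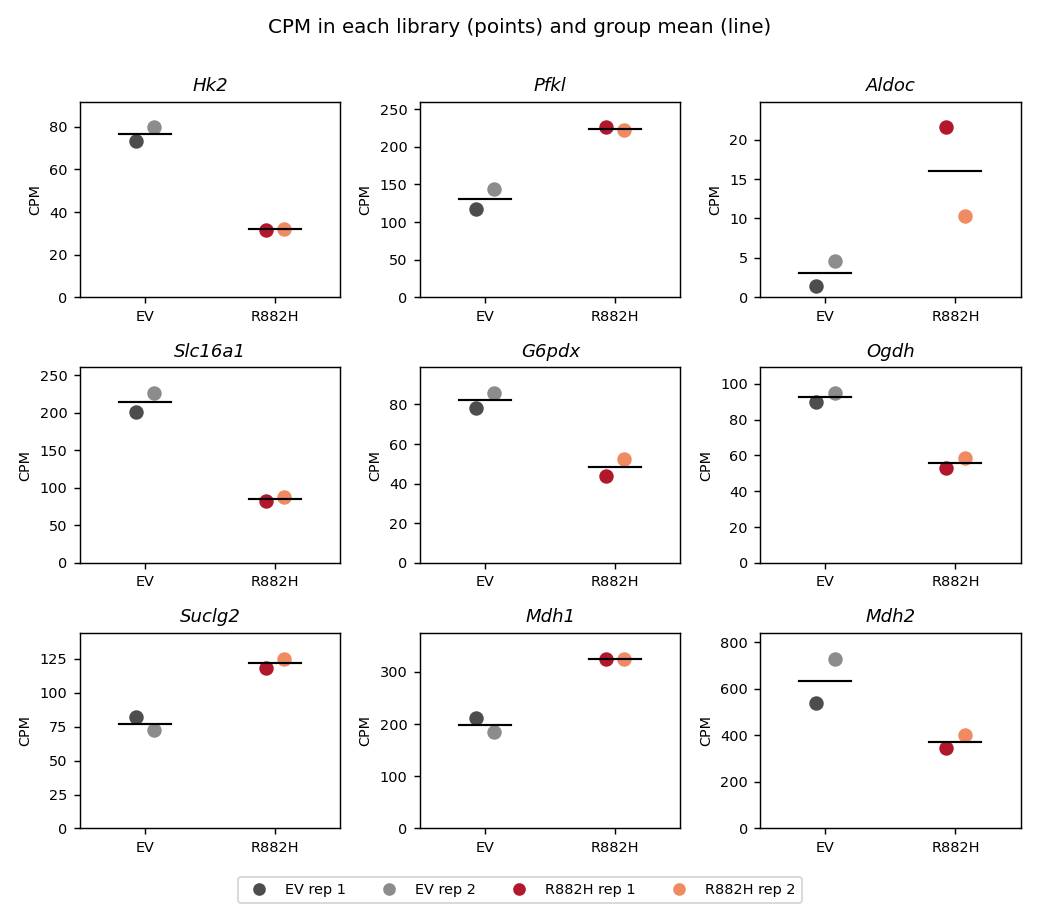
CPM (vertical axes, from 0) in each library (points, shifted sideways by replicate) and the group mean (line) for the 9 members whose call held under each alternative. In every panel both R882H libraries lie on one side of both EV libraries. Picking the panels by their calls nearly fixed this in advance. Of all tested genes, 35.2% had both R882H libraries higher and 33.9% had both lower. Hk2, Slc16a1, G6pdx, Ogdh and Mdh2 are lower and Pfkl, Aldoc, Suclg2 and Mdh1 are higher in R882H.

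Further genes of the same pathways were counted in the same way. Of 29 other glycolytic, gluconeogenic and transport genes, 18 were tested, 3 rose and 8 fell (61.1% called, beside 38.8% of all tested genes). Bsg, the chaperone that carries monocarboxylate transporters to the membrane, averaged 99.5 ± 4.82 CPM in EV against 55.5 ± 5.27 in R882H (−0.84 ± 0.14, adjusted p = 5.79e-06). Pgp, a phosphatase that clears side products of glycolysis, averaged 85.1 ± 2.04 CPM in EV against 42.1 ± 4.82 in R882H (−1.02 ± 0.14). Fbp1, a gluconeogenic phosphatase, fell from 51 and 40 counts in EV to 3 and 6 in R882H (−3.37 ± 0.45). Slc16a7, encoding the monocarboxylate transporter MCT2, had no counts in EV and 25 and 21 in R882H, at least 14.6-fold higher against 3 counts over the EV group.

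Of 10 tested genes around pyruvate dehydrogenase, 2 rose and 1 fell. Their called share was 30.0%, below the 38.8% of all tested genes. The called share was 33.3% in the further pentose phosphate list and 46.2% in the further TCA cycle list, given next. Pdp1, the phosphatase that reactivates the complex, averaged 5.41 ± 0.909 CPM in EV against 18.7 ± 0.336 in R882H (1.79 ± 0.24, adjusted p = 2.80e-07), and Pdk3, a kinase that acts against it, also rose (0.82 ± 0.18; adjusted p = 0.0557 without R882H replicate 1). Dlat, the E2 subunit, fell (−0.50 ± 0.14), a call that ended in DESeq2 (adjusted p = 0.0519) and without R882H replicate 2 (0.115). Of 6 other tested genes of the pentose phosphate list, 2 rose and none fell: Prps1 (0.84 ± 0.14), which makes phosphoribosyl pyrophosphate for nucleotides from ribose 5-phosphate, and Pgm2l1 (0.57 ± 0.20), a sugar phosphate mutase that is not an enzyme of the pathway and lost its call in DESeq2 (adjusted p = 0.218) and without EV replicate 2, R882H replicate 1 or R882H replicate 2 (0.127, 0.114 and 0.0561). Of 13 other tested genes of the TCA cycle and its cytosolic links, 1 rose and 5 fell. Got1, the cytosolic transaminase of the malate-aspartate shuttle, averaged 70.8 ± 4.45 CPM in EV against 41.6 ± 2.50 in R882H (−0.77 ± 0.14, adjusted p = 3.94e-05). Acly, which splits exported citrate into acetyl-CoA (−0.65 ± 0.13), and Me2, a mitochondrial malic enzyme (−0.66 ± 0.15), fell as well. The succinate dehydrogenase subunit Sdhb rose (0.50 ± 0.13; adjusted p = 0.0621 without R882H replicate 2).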

How the data were processed

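Counts per Ensembl gene were taken as the authors deposited them, 1 column per library, with no normalization. Per the labels, libraries were QuantSeq 3′ libraries of poly(A) RNA. The tools listed per the submitters' processing notes are HISAT2 2.0.4, cutadapt 1.14, featureCounts of Subread 2.0.0, bcl2fastq 2.17.1.14, limma 3.48.3 and edgeR 3.34.0, with build mm10. For their settings, the annotation, the strand and multi-mapping reads, the entry is: not given in the sources used here. Symbols and coordinates (1-based) come from GENCODE M21, which matched 52489 of 52636 lines.

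R 4.3.3 with edgeR 4.0.16 tested R882H against EV by quasi-likelihood (robust glmQLFit and glmQLFTest) after filterByExpr and TMM scaling. The p-values of the 11444 genes that passed were adjusted together by Benjamini-Hochberg and called under 0.05. Standard errors were obtained by dividing the size of the log2 fold change by the root of F. The test was checked on simulated data. Gene overlaps count shared exon positions with any gene of at least 10 counts on either strand. Near copies were sought with BLAST 2.17.0 from the last 300 bases of each coding transcript (at least 95% identity over 75 bases). Isozyme shares carry exact 95% binomial intervals (SciPy 1.17.1).

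The members and lists were chosen with earlier results of these data known. All members are named; from the other pathway lists, up to 4 called genes with the smallest p are, plus Txnip, Hif1a and Myc. Marker genes, Egln1, Egln3 and partners of overlap are named outside this rule, with their values known. Levels of members per library are mostly printed as CPM, and those of other genes as counts or group means. Replicates within a group differed by more than counting noise (chi-square per degree of freedom 6.91 in EV and 4.61 in R882H). The alternatives were other normalizations, filters, DESeq2 1.42.0, a replicate block, leaving out overlapping genes and leaving out each library.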

Additional observations from a re-analysis of the deposited data

How the results depend on the processing

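Of the 23 called members, 9 kept their call in each of the 12 alternatives run, except that G6pdx and Mdh1, which overlap other genes, were not in 1 of them. Scaling by the size factors of DESeq2, a fixed minimum of 10 counts and robust=FALSE left the direction and call of each of the 41 tested members as they were. Plain library sizes, no filter and the replicate block each ended the call of Fh1 and of no other member. DESeq2 called 1297 genes higher and 1412 lower and ended 6 member calls, among them that of Pdk1, so that 0 of the pyruvate entry genes were called there (1 at an unadjusted p under 0.05). Without genes whose exons overlap another gene, 1 pentose phosphate gene fell, since G6pdx and Tkt are removed. With 1 library left out, the lone library of its group is assumed to vary like the other group. All genes called lower ranged from 1446 (without R882H replicate 1) to 2168, glycolysis genes lower from 3 (without R882H replicate 2) to 9, pentose phosphate genes lower from 1 to 4 and higher from 0 to 1, Pdk1 from 0 to 1 calls and TCA cycle genes lower from 2 (without R882H replicate 2) to 4. The sign of 10 members that were not called turned, with log2 fold changes from −0.2118 to 0.0666 for Gpi1, −0.0344 to 0.0622 for Pfkp, −0.1255 to 0.0509 for Pfkfb3, −0.2257 to 0.0388 for Pgk1, −0.0701 to 0.0483 for Pgam1, −0.264 to 0.0372 for Slc16a3, −0.12 to 0.19 for Idh1, −0.0013 to 0.23 for Idh3b, −0.0276 to 0.1221 for Idh3g and −0.053 to 0.3328 for Sucla2. The cause was not tested.

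Whether same-numbered libraries share more than their number is not stated. Their deviations from the group means did not correlate (r = −0.0026 across genes), which cannot show whether they share a culture or preparation. The replicate block gave 2196 genes higher and 2229 lower, against 2213 and 2222 without it.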

Other observations

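Regulators of glucose use were outside the member list. Txnip, whose product restrains glucose uptake, had 295 and 337 counts in EV and 1144 and 737 in R882H (a log2 fold change of 1.498 ± 0.154, with an edgeR adjusted p of 1.84e-09). Hif1a, the inducible subunit of hypoxia-inducible factor, averaged 63.5 ± 0.0652 CPM in EV against 36.9 ± 4.203 in R882H (−0.78 ± 0.15). Egln2, a prolyl hydroxylase that marks the Hif1a product for decay, fell by a like amount (−0.78 ± 0.14). The other prolyl hydroxylase genes on the list, Egln1 (0.375 ± 0.131, adjusted p = 0.0223) and Egln3 (0.65 ± 0.13, adjusted p = 0.00017), rose. Myc rose from 586 and 878 counts in EV to 1273 and 1030 in R882H (0.585 ± 0.148, adjusted p = 0.00195), a call that ended without EV replicate 1 (adjusted p = 0.0562, 0.34) and without R882H replicate 1 (0.0569). Mycn had no counts in EV and 39 and 26 in R882H, at least 20.6-fold higher against 3 counts over the EV group. Of 14 tested regulators 6 rose and 2 fell (57.1% called, beside 38.8% of all tested genes).

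Genes known as targets of hypoxia-inducible factor outside glycolysis were mostly called higher: of 14 tested, 8 rose and 2 fell. Over all tested genes 19.3% rose and 19.4% fell. The median log2 fold change was 0.57 in the list and 0.01 over all genes. The list was chosen with earlier results of these data known. Ankrd37 averaged 2.53 ± 1.09 CPM in EV against 16.7 ± 0.930 in R882H (2.72 ± 0.30), and the demethylase gene Kdm3a (1.10 ± 0.18) and the mitophagy gene Bnip3 (0.9998 ± 0.173) rose. Ero1l, an oxidase of the endoplasmic reticulum, fell, with 678 ± 22.0 CPM in EV against 222 ± 19.1 in R882H (−1.61 ± 0.14, adjusted p = 1.25e-11). The summed level of the list, to which Ero1l gave most in EV, went against its median, with 1293 and 1216 CPM in EV and 928 and 896 CPM in R882H. Egln3 is in both this list and that of the regulators. Of 18 cell cycle genes 3 rose and 3 fell (33.3% called, beside 38.8% of all tested genes). Their summed level was 4573 and 4613 CPM in EV and 4732 and 5033 CPM in R882H.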
